A study of Arabidopsis thaliana with 12 samples.

Results

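The question was whether the transcriptome's response to loss of 5 *CBP60* genes depends on the immune background in which they are lost. All 12 libraries of the series enter it, which is 12 of 12, with 3 libraries in each of 4 genotypes. *octuple* seedlings lack *CBP60b*, *CBP60c*, *CBP60d*, *CBP60e* and *CBP60f* together with *EDS1*, *PAD4* and *NDR1*. *epn* seedlings lack *EDS1*, *PAD4* and *NDR1* only, *quintuple* seedlings lack the 5 *CBP60* genes only, and WT carries none of these mutations. RNA came from the aerial parts of untreated seedlings, and each library pooled 20 to 30 plants. The response in the *epn* background is the log2 ratio of *octuple* over *epn*, and the response in the WT background is that of *quintuple* over WT. The interaction is the difference between them, (*octuple* - *epn*) - (*quintuple* - WT), so a negative value means a smaller or more negative log2 ratio in the *epn* background. The 2 responses share no library.

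CBP60 proteins are plant transcription factors, several of which bind calmodulin. Members of the CBP60b clade act in immune gene expression, and plants that lose them show autoimmunity, that is, immune activation without a pathogen. EDS1 and PAD4 transmit signals from intracellular immune receptors with a TIR domain through the helper receptors ADR1 and its relatives. NDR1 is a membrane protein needed by several receptors with a coiled-coil domain. Downstream of these routes lie salicylic acid (SA) synthesis, the PATHOGENESIS-RELATED (PR) proteins and, in many autoimmune plants, slower growth and less photosynthetic gene expression.

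The model has limits that touch every comparison. *quintuple* plants die as seedlings according to the study's supplement, so the *quintuple* libraries may hold RNA of dying plants, and stage of decline and genotype cannot be told apart. The *octuple* and *quintuple* lines both lack the 5 *CBP60* genes. For a response that both show, this loss and anything else that both carry cannot be told apart. Which of the study's *quintuple* lines was sequenced, and which lies behind *octuple*, is not given in the sources used here. If their alleles differ, that difference and the interaction cannot be told apart. Aerial parts are a mixture of cell types, in which fewer cells of a type and less RNA per cell cannot be told apart. The labels call the 3 libraries of a genotype replicates, and the p-values measure the spread between these libraries.

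Depth was similar across libraries, from 38698646 to 44294404 counts. After a filter on low counts 20134 of 23784 genes were tested. The first principal component held 70.4% of the variance and the second 11.3%, which set replicate 3 apart from the other replicates in all 4 genotypes. Scaled by library totals alone, the 5 leaf mesophyll markers summed to 30480 to 52520 CPM (counts scaled to a common library total) in *octuple*, 34480 to 55730 CPM in *epn*, 4666 to 22140 CPM in *quintuple* and 34740 to 56860 CPM in WT. The mesophyll sum was thus lower in each *quintuple* library than in every other library. The 4 root hair markers summed to at most 0.181 CPM in any library and to 0 in *quintuple*, and the 4 floral markers to at most 5.37 CPM. The part of a changed cell composition in the results below was not tested.

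The transcripts of the mutated genes checked some labels and not others. *EDS1* was at 5.90, 7.43 and 8.87 CPM in *octuple*, 6.55, 4.39 and 4.14 CPM in *epn*, 120, 71.1 and 111 CPM in *quintuple*, and 23.1, 17.9 and 22.4 CPM in WT. *PAD4* was at 3.47, 3.00 and 3.54 CPM in *octuple*, 1.42, 1.14 and 1.44 CPM in *epn*, 125, 71.5 and 110 CPM in *quintuple*, and 9.97, 4.82 and 4.66 CPM in WT. Both were lower in the 6 libraries with the *epn* mutations than in the 6 without them. *CBP60b* was at 56.0, 47.1 and 42.9 CPM in *octuple*, 40.1, 37.4 and 40.8 CPM in *epn*, 248, 223 and 155 CPM in *quintuple*, and 42.2, 41.7 and 44.2 CPM in WT. Its transcript was not lower in either genotype that lacks the gene, so transcript level does not check that label. *CBP60c* was lower in both, with 31.7, 26.8 and 30.2 CPM in *octuple* against 51.9, 47.9 and 47.9 CPM in *epn*, and 29.4, 35.1 and 33.4 CPM in *quintuple* against 42.7, 47.5 and 47.1 CPM in WT. Neither difference reached a fold of 2. *CBP60d* passed in neither background, *CBP60e* fell by 1.13 in *quintuple* over WT, and *CBP60f* rose in both, by 1.64 in *octuple* over *epn* and by 1.08 in *quintuple* over WT. *NDR1* was at 4.99, 3.42 and 4.94 CPM in *octuple*, 2.49, 2.47 and 6.15 CPM in *epn*, 21.0, 17.1 and 13.5 CPM in *quintuple*, and 5.49, 5.57 and 7.98 CPM in WT, and the *epn* range overlapped that of WT. Here and below, CPM of a single gene are scaled by TMM factors, which correct library size for composition.

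Loss of the 5 *CBP60* genes changed far fewer genes in the *epn* background than in the WT background. A gene was called at a Benjamini-Hochberg adjusted p under 0.05 in edgeR's quasi-likelihood test and a fold change of at least 2. In *octuple* over *epn*, 1017 genes rose, which is 5.05% of those tested, and 81 fell, which is 0.402%. In *quintuple* over WT, 4170 genes rose, which is 20.7%, and 4396 fell, which is 21.8%. The interaction itself was called in 5697 genes, of which 3406 had a higher value (16.9% of those tested) and 2291 a lower one (11.4%). With library size in place of TMM scaling the same counts were 2643 higher and 3352 lower, so which direction held more genes depended on the scaling. *epn* and WT differed in 4 called genes, *EDS1*, *PAD4*, *PFK6* and *AT1G19550*, each lower in *epn*.

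Among genes called in *quintuple* over WT, rising and falling responses both had smaller medians in the *epn* background. Choosing genes by a response by itself tends to enlarge the median of that response. The 4170 genes that rose in *quintuple* over WT had a median log2 change of 0.65 in *octuple* over *epn*, against 2.28 in *quintuple* over WT. Of these, 3739 (89.7%) had the same sign in both backgrounds and 951 (22.8%) also rose in *octuple*, against 5.05% of all tested genes. These 951 are 93.5% of the genes that rose in *octuple*. The 4396 genes that fell in *quintuple* over WT had a median of -0.26 in *octuple* over *epn*, against -1.81 in *quintuple* over WT. Of these 64 (1.46%) also fell in *octuple*, against 0.402% of all tested genes. The 64 are 79.0% of the genes that fell there. The 95% interval of *octuple* over *epn* lay within -1 and 1 for 2794 of the 4396 falling genes (63.6%). The same held for 13890 of all tested genes (69.0%) and 1429 (34.3%) of the rising genes. With genes chosen by *octuple* over *epn* instead, the 1017 that rose had medians of 2.60 there and 4.19 in *quintuple* over WT. The 81 that fell had medians of -1.83 and -3.80 in the same order.

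**Figure D1:**
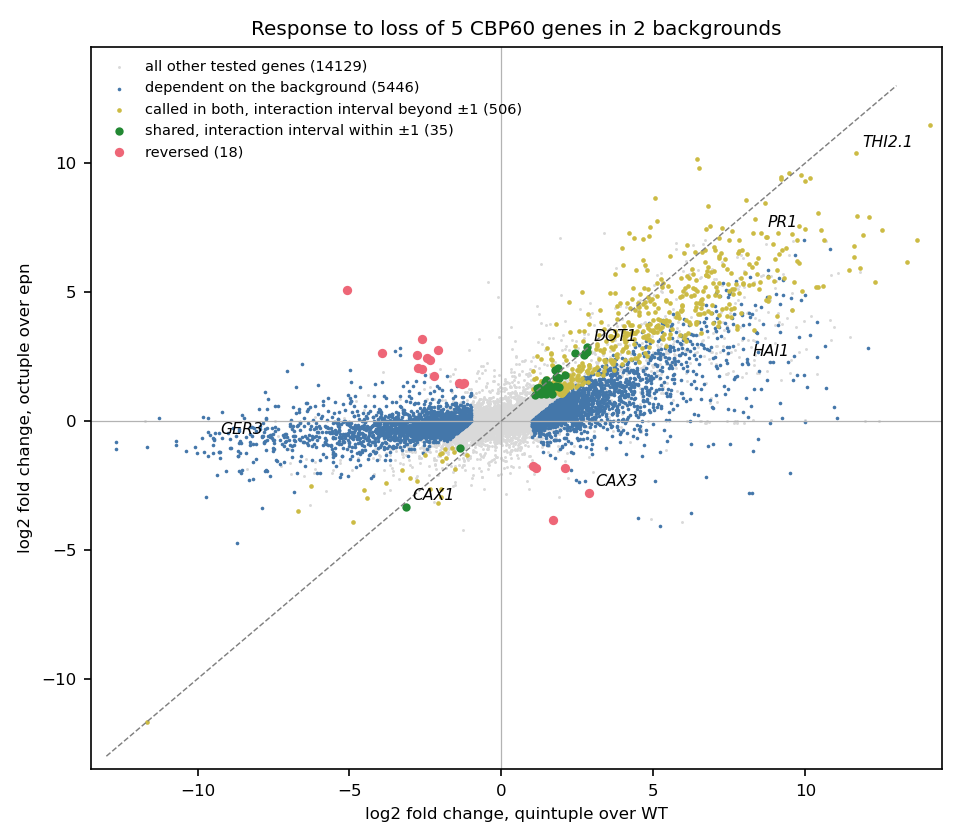
Each point is 1 of 20134 tested genes, with its log2 fold change of *quintuple* over WT on the x axis and of *octuple* over *epn* on the y axis, coloured by response class. The dashed diagonal marks equal responses. Most of the 5446 dependent genes lie near the horizontal axis, the 35 shared genes lie along the diagonal, and the 18 reversed genes lie in the opposite quadrants.

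Genes were sorted into response classes by calls and intervals. A response was called dependent where the gene passed in *quintuple* over WT and the interaction passed in the opposite direction. It was called shared where both responses passed in 1 direction and the 95% interval of the interaction lay within -1 and 1 on the log2 scale. There were 5446 dependent genes (27.0% of those tested), made of 2188 rising and 3258 falling responses in *quintuple*. With library size in place of TMM scaling these were 3187 and 2507, so the larger direction turned round here too. The criterion of a shared response was met by 35 genes, 33 of them rising and 2 falling. Without 1 library the counts were 18 to 40 rising, lowest without *epn* replicate 1 and 21 without *octuple* replicate 1, and 1 to 5 falling. A further 506 genes passed in both backgrounds in 1 direction, but with an interval of the interaction that reached beyond those limits. Another 2557 passed only in *quintuple* over WT, with an interaction that did not pass, so for these the data do not decide. In 18 genes both responses passed with opposite signs. The interaction's interval reached 0.59 to either side of its estimate at the median of all tested genes, and 6660 (33.1%) had an interval within -1 and 1, so the number of shared genes is limited by precision.

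Some genes of the dependent class still responded in *octuple* over *epn*. Of the 2188 dependent rising genes, 432 still rose in *octuple* over *epn* and 1756 (80.3%) did not pass there, and the median of the class was 0.45 in *octuple* over *epn* against 2.35 in *quintuple* over WT. Of the 3258 dependent falling genes, 38 still fell and 3220 (98.8%) did not pass, with medians of -0.22 and -2.01 in the same order. Not passing does not show that a response was lost. The 95% interval of *octuple* over *epn* lay within -1 and 1 for 946 (43.2%) of the dependent rising and 2256 (69.2%) of the dependent falling genes, against 69.0% of all tested genes. These medians and shares are descriptions, since the same libraries chose the classes.

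The gene groups described next come from 44 lists with 961 tested genes. Each list is given by its counts and its median, which can be set beside a median over all tested genes of -0.01 for *octuple* over *epn*, 0.00 for *quintuple* over WT and 0.00 for the interaction. The counts can be set beside the shares of all tested genes. In *quintuple* over WT 20.7% rose and 21.8% fell, and in *octuple* over *epn* 5.05% rose and 0.402% fell. The interaction was higher in 16.9% and lower in 11.4%.

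**Figure D2:**
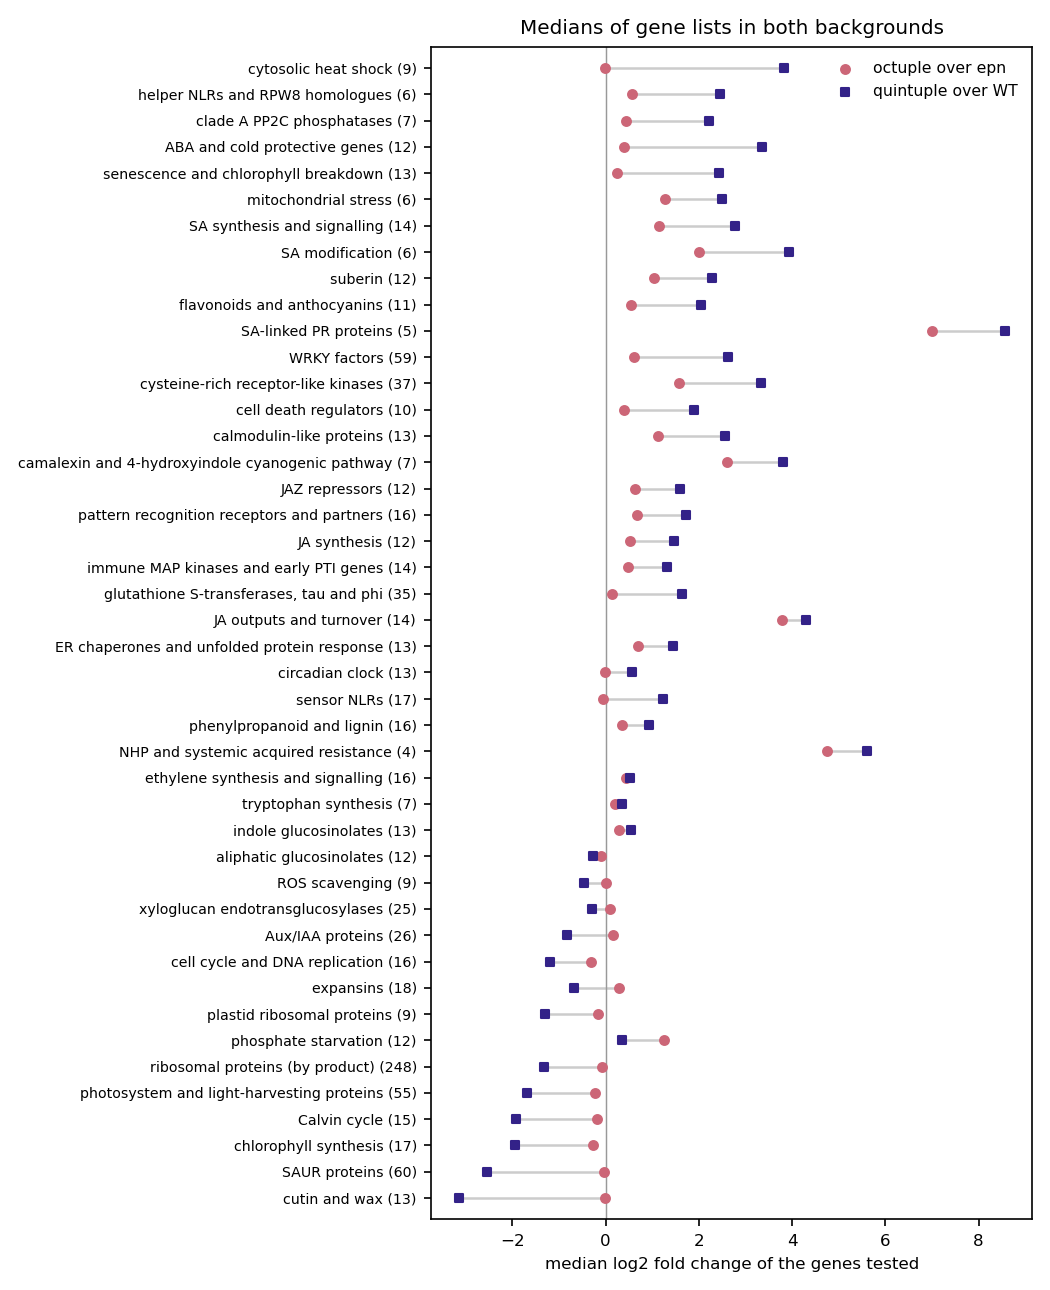
Median log2 fold change of each of 44 gene lists in *octuple* over *epn* (circles) and in *quintuple* over WT (squares), with the number of genes tested in brackets and lists ordered by the median of the interaction. The lists at the foot of the plot, such as cutin and wax (-0.00 and -3.15), were low in *quintuple* over WT and near 0 in *octuple* over *epn*, whereas the PR proteins (7.00 and 8.56) were high in both.

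SA synthesis and signalling responded less in the *epn* background, but did not stop responding. Of 14 tested genes 13 rose in *quintuple* over WT, 6 rose in *octuple* over *epn*, and 12 had a lower interaction, with medians of 1.15, 2.79 and -1.67 for *octuple* over *epn*, *quintuple* over WT and the interaction. The count of 12 became 7 without *octuple* replicate 2 and 7 without *epn* replicate 2. *ICS1*, which encodes the isochorismate synthase of SA synthesis, was at 63.2, 31.7 and 56.0 CPM in *octuple*, 14.2, 12.2 and 4.99 CPM in *epn*, 629, 357 and 606 CPM in *quintuple*, and 15.3, 11.5 and 5.14 CPM in WT. Every *octuple* library lay above the *epn* libraries and below the *quintuple* libraries. Its log2 change was 2.32 (SE 0.39) in *octuple* over *epn* and 5.71 (SE 0.39) in *quintuple* over WT, with an interaction of -3.40 (SE 0.55, adjusted p = 0.00133). *PBS3*, which encodes the enzyme that conjugates isochorismate with glutamate, behaved alike. It was at 34.0, 16.2 and 32.5 CPM in *octuple* against 1.44, 1.08 and 1.13 CPM in *epn*, and at 331, 238 and 433 CPM in *quintuple* against 3.75, 1.23 and 3.10 CPM in WT. Its interaction was -2.58 (SE 0.32, adjusted p = 0.000309), so a rise of 4.44 on the log2 scale remained in *octuple*. For *CBP60G*, a transcription factor of the same family that activates *ICS1*, the response in *octuple* over *epn* was 1.31 and did not pass (adjusted p = 0.172), against a rise of 4.26 in *quintuple* over WT and an interaction of -2.96 (adjusted p = 0.00751).

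Helper receptors act with EDS1 and PAD4. In a list of helper receptor genes, RPW8 homologues and *SAG101*, each of the 6 tested had a lower interaction, against 11.4% of all tested genes. Of these, 5 rose in *quintuple* over WT and were dependent, and 0 rose in *octuple* over *epn*. *ADR1* was at 14.8, 13.03 and 15.0 CPM in *octuple*, 14.2, 8.55 and 11.3 CPM in *epn*, 77.7, 58.5 and 119 CPM in *quintuple*, and 14.8, 9.41 and 9.45 CPM in WT. The *octuple* values overlapped those of *epn* and WT, and the *quintuple* values did not. The interaction was -2.55 (adjusted p = 0.000242) for *ADR1*, -1.76 (adjusted p = 0.000179) for *ADR1-L1* and -1.52 (adjusted p = 0.00053) for *ADR1-L2*. *SAG101*, whose product pairs with EDS1 in another signalling complex, had an interaction of -1.38 (adjusted p = 0.000599), with 11.9, 12.1 and 12.6 CPM in *octuple* against 7.26, 6.21 and 7.91 CPM in *epn*, and 37.1, 28.9 and 45.2 CPM in *quintuple* against 9.19, 6.00 and 9.56 CPM in WT. Of 17 sensor receptor genes, 10 rose in *quintuple* over WT, 1 in *octuple* over *epn* and 6 had a lower interaction. Among them *SNC1* had an interaction of -1.26 (adjusted p = 0.00176) and *ZAR1* one of -1.21 (adjusted p = 0.00038). Of the exonic sequence 21.6% in *ADR1-L1* and 17.5% in *SNC1* lies also in another gene, so their counts are less certain.

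Cell-surface perception was mixed. Of 16 genes for pattern recognition receptors and their partners, 12 rose in *quintuple* over WT, 5 rose in *octuple* over *epn* and 8 had a lower interaction (5 without *quintuple* replicate 1). *SOBIR1*, the adaptor kinase of receptor-like proteins, rose in both backgrounds by unequal amounts, by 2.42 in *octuple* over *epn* and by 3.78 in *quintuple* over WT, with an interaction of -1.36 (adjusted p = 0.00732). For *SOBIR1*, 28.0% of the exonic sequence lies also in a neighbouring gene, so its counts are less certain. *FLS2*, the flagellin receptor, went the other way. It was at 19.8, 15.8 and 10.6 CPM in *octuple* against 14.2, 13.4 and 12.1 CPM in *epn*, and at 5.76, 5.96 and 3.28 CPM in *quintuple* against 15.2, 16.1 and 10.9 CPM in WT. It fell in *quintuple* over WT alone, with an interaction of 1.69 (adjusted p = 0.000359). *MPK3*, a kinase of the early immune cascade, rose by 1.63 in *quintuple* over WT, with a value of 0.42 in *octuple* over *epn* that did not pass and an interaction of -1.21 (adjusted p = 0.00223). Among 59 WRKY transcription factor genes, 41 rose and 2 fell in *quintuple* over WT, and 13 rose in *octuple* over *epn*. In 23 of the 59 the interaction was lower (15 without *epn* replicate 2). Among 37 cysteine-rich receptor-like kinase genes, 32 rose and 2 fell in *quintuple* over WT, and 17 rose in *octuple* over *epn*. In 15 of the 37 the interaction was lower and in 2 it was higher.

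The clade A PP2C phosphatase genes of abscisic acid (ABA) signalling were dependent in each of the 7 tested. The phosphatases hold back ABA signalling and are themselves induced by ABA. Of these, 7 rose in *quintuple* over WT, 2 rose in *octuple* over *epn* and 7 had a lower interaction, with medians of 0.44, 2.21 and -1.93 for *octuple* over *epn*, *quintuple* over WT and the interaction. *HAI1* was at 5.18, 0.941 and 4.96 CPM in *octuple*, 0.315, 0.782 and 0.895 CPM in *epn*, 114, 59.2 and 291 CPM in *quintuple*, and 0.647, 0.201 and 0.757 CPM in WT. Its interaction of -5.78 (SE 0.75, adjusted p = 0.000431) was among the 6 lowest of the genes ranked by size. *PP2CA* was at 45.5, 47.1 and 58.1 CPM in *octuple* against 47.1, 29.9 and 45.2 CPM in *epn*, and at 198, 157 and 226 CPM in *quintuple* against 39.4, 33.3 and 49.3 CPM in WT. Its *octuple* libraries overlapped those of *epn*, and its interaction was -1.93 (adjusted p = 7.47e-05). *HAB1* and *HAI2* had interactions of -2.17 (adjusted p = 0.000311) and -4.55 (adjusted p = 0.000732). Of 12 genes for ABA-induced and cold-induced protective proteins, 10 rose in *quintuple* over WT, 1 in *octuple* over *epn* and 7 had a lower interaction, a count that became 3 without *octuple* replicate 1, 3 without WT replicate 1, and 4 without *octuple* replicate 3, *epn* replicate 2 or *epn* replicate 3. *RD29B*, a stress protein gene with ABA-response elements, was at 0.482, 0.371 and 0.496 CPM in *octuple*, 0.393, 0.177 and 0.165 CPM in *epn*, 36.7, 20.9 and 86.7 CPM in *quintuple*, and 0.233, 0.126 and 0.142 CPM in WT. The interaction was -7.15 (adjusted p = 0.000155) for *RD29B* and -3.83 (adjusted p = 7.2e-05) for the dehydrin gene *RAB18*.

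Genes of senescence and of stress differed in how many were dependent. Of 13 genes of senescence and chlorophyll breakdown, 11 rose in *quintuple* over WT, 2 in *octuple* over *epn* and 7 had a lower interaction and were dependent, with a median interaction of -1.84. *NYE1* and *NYE2* encode STAY-GREEN proteins that remove magnesium from chlorophyll, and *PAO* encodes the oxygenase that opens its ring. *PAO* was at 95.8, 74.5 and 74.0 CPM in *octuple* against 82.5, 72.7 and 90.5 CPM in *epn*, and at 260, 254 and 290 CPM in *quintuple* against 87.2, 71.6 and 75.8 CPM in WT. The *octuple* libraries overlapped those of *epn*, and each *quintuple* library stood above every other. The interactions were -1.79 (adjusted p = 8.34e-05) for *PAO*, -2.29 (adjusted p = 0.000739) for *NYE1*, -5.23 (adjusted p = 0.000173) for *NYE2* and -3.39 (adjusted p = 0.00547) for the senescence regulator *NAC092*. Of the stress lists, 4 of 6 mitochondrial stress genes and 4 of 13 endoplasmic reticulum chaperone genes were dependent rises, against 10.9% of all tested genes. So were 2 of 10 cell death regulators and 4 of 9 genes of reactive oxygen scavenging. The scavenging list differed in direction, with 4 genes falling and 2 rising in *quintuple* over WT, and 3 higher and 1 lower interaction. *AOX1A*, the mitochondrial alternative oxidase, had an interaction of -1.79 (adjusted p = 0.000133), and *CRT3*, a chaperone of the endoplasmic reticulum, one of -1.61 (adjusted p = 0.00872).

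Cytosolic heat shock genes had the lowest median of the 44 lists, at -3.23, and also a wide spread between libraries. Of 9 tested, 7 rose in *quintuple* over WT, 0 in *octuple* over *epn*, and 3 had a lower interaction and were dependent (lower in 7 without *quintuple* replicate 2, 5 without WT replicate 2). *HSP90.1*, a stress-induced chaperone, was at 38.6, 26.2 and 31.7 CPM in *octuple*, 19.3, 22.0 and 21.3 CPM in *epn*, 706, 144 and 274 CPM in *quintuple*, and 17.58, 37.5 and 17.38 CPM in WT, with an interaction of -3.23 (adjusted p = 0.00549). *HSFA2*, a transcription factor of the heat response, was at 242 CPM in *quintuple* replicate 1 and at 13.99 and 4.00 CPM in replicates 2 and 3, so 1 library held most of its signal. Its interaction did not pass (adjusted p = 0.294).

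Jasmonic acid (JA) genes were mixed. In each JA list most genes had no called interaction, but the share with a lower one was above the 11.4% of all tested genes. It was 41.7% for JA synthesis, 41.7% for JAZ repressors and 21.4% for JA outputs and turnover. Of 12 JA synthesis genes 9 rose in *quintuple* over WT, 1 in *octuple* over *epn* and 5 had a lower interaction, a count that became 2 without *octuple* replicate 2 and 3 without *octuple* replicate 1, *epn* replicate 2, *quintuple* replicate 2 or WT replicate 2. *LOX3*, a lipoxygenase of JA synthesis, had 34.6, 31.1 and 41.0 CPM in *octuple* against 21.0, 33.6 and 24.3 CPM in *epn*, and 309, 193 and 129 CPM in *quintuple* against at most 25.1 CPM in WT, with an interaction of -2.91 (adjusted p = 0.000853). Of 12 JAZ repressor genes 2 rose in *octuple* over *epn*, 8 rose and 1 fell in *quintuple* over WT, and 5 had a lower interaction. *JAZ10*, a repressor induced by JA, rose in both backgrounds, by 2.87 in *octuple* over *epn* and by 5.64 in *quintuple* over WT, with an interaction of -2.77 (adjusted p = 0.00549). The storage protein gene *VSP2* rose by 2.60 and by 4.37 in the same order, with an interaction of -1.77 (adjusted p = 0.0069). Among 14 JA output and turnover genes 8 rose in *octuple* over *epn*, 12 rose and 1 fell in *quintuple* over WT, and 3 had a lower interaction (1 without *epn* replicate 2) and 1 a higher one. *THI2.1*, a thionin gene, was at 106, 13.1 and 47.9 CPM in *octuple*, 0.0262, 0.0505 and 0.0236 CPM in *epn*, 110, 145 and 131 CPM in *quintuple*, and 0.0259, 0.0502 and 0.0474 CPM in WT. Each library without the *cbp60* mutations was at or below the 0.0582 to 0.0787 CPM that 3 counts stand for, so no fold change is given. *PR3*, a basic chitinase gene, rose by 6.65 in *octuple* over *epn* and by 7.02 in *quintuple* over WT, with an interaction of -0.38 and an interval from -1.68 to 0.93. *PR4* had an interaction of -0.53 with an interval from -1.23 to 0.16. Neither interval stayed within the limits for a shared response, and 31.8% of the exonic sequence of *PR3* lies also in an overlapping gene.

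SA-linked PR proteins rose strongly in both backgrounds. Of 5 genes, 5 rose in *octuple* over *epn* and 5 in *quintuple* over WT, with medians of 7.00 and 8.56, and 1 had a lower interaction. *PR1* was at 470, 432 and 209 CPM in *octuple*, 1.68, 1.99 and 2.71 CPM in *epn*, 3180, 4318 and 4299 CPM in *quintuple*, and 52.8, 2.23 and 1.97 CPM in WT. Each *octuple* library stood above all *epn* and WT libraries and below all *quintuple* libraries. The log2 change was 7.28 (SE 0.95) in *octuple* over *epn* and 8.56 (SE 0.91) in *quintuple* over WT, and the interaction of -1.28 did not pass (interval from -4.23 to 1.67, adjusted p = 0.508). WT replicate 1 was far above the other WT libraries, and without it the interaction was -3.44 (adjusted p = 0.00197). *PR2*, a glucanase gene, had an interaction of -1.59 (adjusted p = 0.0639), which was -2.24 (adjusted p = 0.00757) without WT replicate 1 and -2.07 (adjusted p = 0.00713) without *quintuple* replicate 1. *PR5*, a thaumatin-like gene, had one of -1.40 (adjusted p = 0.123), which was -2.03 (adjusted p = 0.0319) without WT replicate 1 and -1.88 (adjusted p = 0.0182) without *quintuple* replicate 1. For the list, the count with a lower interaction became 4 without WT replicate 1 and 3 without *quintuple* replicate 1. With all 12 libraries, *PR2* passed under DESeq2 (adjusted p = 0.0125) and with library size in place of TMM scaling (adjusted p = 0.0363), and *PR5* passed under DESeq2 (adjusted p = 0.0485). Whether the interaction passed for *PR1*, *PR2* and *PR5* thus turned on single libraries, and for *PR2* and *PR5* also on the fit.

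Several other immune outputs also rose in both backgrounds with an interaction that neither passed nor was bounded. Of 4 tested genes of N-hydroxypipecolic acid and systemic acquired resistance, 3 rose in *octuple* over *epn* and 3 in *quintuple* over WT. The interactions of the 4 were -4.12, -0.49, -0.27 and 2.61, and only the highest passed. The gene at -4.12 rose in both backgrounds. That its interaction did not pass does not show that its response was alike in both. *AZI1*, which acts in the priming of systemic resistance, was at 81.6, 71.7 and 16.03 CPM in *octuple* against 2.33, 1.34 and 1.46 CPM in *epn*, and at 150, 94.6 and 83.2 CPM in *quintuple* against 4.89, 3.87 and 1.51 CPM in WT, with an interaction of -0.27 (interval from -1.42 to 0.88). *DIR1*, a lipid-transfer protein gene of the same list, instead fell in *quintuple* over WT alone, by 2.21, with an interaction of 2.61 (adjusted p = 0.000362), but 100% of the exonic sequence of *DIR1* lies also in an overlapping gene, so these counts may not be its own. *RLP23*, a receptor-like protein gene, rose by 5.24 and 6.14 in *octuple* over *epn* and *quintuple* over WT, with an interaction of -0.90 (interval from -2.34 to 0.54). *PAD3*, which encodes the last enzyme of camalexin synthesis, rose by 4.12 and 4.52 in the same order, with an interaction of -0.40 (interval from -2.88 to 2.08). That value was the nearest to 0 among 7 tested genes of camalexin and a related cyanogenic pathway, whose median interaction was -1.07. In 2 of the 7 the interaction was lower, a count of 1 to 3 without a library.

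Photosynthesis and chlorophyll synthesis fell in *quintuple* over WT and hardly moved in *octuple* over *epn*. Of 55 genes for photosystem and light-harvesting proteins, 47 fell in *quintuple* over WT, 1 fell in *octuple* over *epn* and 42 had a higher interaction, with medians of -0.23, -1.68 and 1.46 for *octuple* over *epn*, *quintuple* over WT and the interaction. Without the replicate block 15 of the 55 had a higher interaction. Of 15 Calvin cycle genes 14 fell in *quintuple* over WT, 0 in *octuple* over *epn*, and 11 had a higher interaction. Of 17 chlorophyll synthesis genes the counts were 16, 0 and 16, the last becoming 10 without the block. *RBCS1A*, a small subunit of Rubisco, was at 18080, 22000 and 18520 CPM in *octuple*, 17180, 22640 and 22220 CPM in *epn*, 6005, 5404 and 2357 CPM in *quintuple*, and 22510, 23770 and 22580 CPM in WT. Its *octuple* libraries lay inside the range of *epn*, and the interaction was 2.27 (SE 0.51, adjusted p = 0.00668). *PCB2*, a reductase of chlorophyll synthesis, was at 120, 165 and 160 CPM in *octuple* against 156, 210 and 205 CPM in *epn*, and at 32.8, 23.63 and 19.9 CPM in *quintuple* against 163, 187 and 208 CPM in WT, with an interaction of 2.49 (adjusted p = 0.000249). *CHLI2*, a subunit of magnesium chelatase, had an interaction of 2.24 (adjusted p = 0.00141), *CHLM*, the next methyltransferase, one of 1.87 (adjusted p = 0.00581), and *SBPASE*, a Calvin cycle phosphatase, one of 2.03 (adjusted p = 0.0139). The summed mesophyll markers given above moved with these genes.

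The cuticle had the highest median of the 44 lists. Of 13 tested genes of cutin and wax, 11 fell in *quintuple* over WT, 0 passed in *octuple* over *epn* and 11 had a higher interaction, with medians of -0.00, -3.15 and 2.99 for *octuple* over *epn*, *quintuple* over WT and the interaction. *DCR*, an acyltransferase needed for cutin, was at 36.9, 36.8 and 42.8 CPM in *octuple*, 66.8, 69.9 and 91.4 CPM in *epn*, 1.195, 0.505 and 1.09 CPM in *quintuple*, and 70.5, 60.8 and 76.9 CPM in WT. Each *octuple* library was below the *epn* libraries, by a log2 difference of -0.96 that did not reach a fold of 2, and the interaction was 5.28 (SE 0.27, adjusted p = 6.27e-06). *CYP86A4*, a fatty acid hydroxylase gene of cutin, was at 8.41, 7.73 and 8.05 CPM in *octuple* against 13.2, 9.49 and 14.8 CPM in *epn*, and at 0.146, 0.0229 and 0.330 CPM in *quintuple* against 14.3, 10.0 and 11.4 CPM in WT, with an interaction of 5.51 (adjusted p = 6.19e-05). Its *quintuple* replicate 2 lay below the 0.0688 CPM that 3 counts stand for in that library, so the size of this interaction is less certain. The acyltransferase gene *GPAT8* had an interaction of 4.16 (adjusted p = 0.000214). *MYB96*, a transcription factor of wax synthesis, was an exception, with an interaction of -0.45 that did not pass (adjusted p = 0.464).

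Lists of translation and growth differed in how many genes fell in *quintuple* over WT. Of 248 genes annotated as ribosomal proteins by product, 172 fell and 7 rose in *quintuple* over WT, 0 fell and 1 rose in *octuple* over *epn*, and 166 had a higher and 3 a lower interaction, with a median interaction of 1.24. This family falls by product name only and may hold organellar members. Of 60 SAUR genes, which respond to auxin, 37 fell and 12 rose in *quintuple* over WT, 1 fell and 5 rose in *octuple* over *epn*, and 31 had a higher (14 without the block) and 6 a lower interaction. Of 16 genes of cell cycle and DNA replication 12 fell in *quintuple* over WT, 0 passed in *octuple* over *epn*, and 7 had a higher interaction (4 without *quintuple* replicate 1). *CYCB1;1*, a mitotic cyclin gene, was at 4.48, 4.16 and 5.31 CPM in *octuple* against 3.41, 6.31 and 5.42 CPM in *epn*, and at 0.708, 1.05 and 1.75 CPM in *quintuple* against 3.00, 4.09 and 5.40 CPM in WT, with an interaction of 1.77 (adjusted p = 0.00312). *PCNA1*, the sliding clamp of DNA replication, had an interaction of 1.39 (adjusted p = 0.0021). *CYCD3;1*, a cyclin of cell cycle entry, passed in neither background, at 29.8, 26.7 and 23.57 CPM in *octuple* against 23.4, 25.9 and 25.2 CPM in *epn*, and 20.4, 26.9 and 29.5 CPM in *quintuple* against 19.8, 25.9 and 26.5 CPM in WT. Its interaction of 0.02 had an interval from -0.46 to 0.50, inside a fold of 2. In other growth lists smaller shares fell in *quintuple* over WT. These were 6 of 18 expansin genes (2 rose), 10 of 25 xyloglucan endotransglucosylase genes (6 rose) and 10 of 26 Aux/IAA genes (0 rose). Of all tested genes 21.8% fell.

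The largest response that met the shared criterion was a fall of *CAX1*, which encodes a transporter that exchanges calcium for protons at the vacuole. It was at 64.3, 63.7 and 64.2 CPM in *octuple*, 805, 639 and 506 CPM in *epn*, 62.7, 70.9 and 74.6 CPM in *quintuple*, and 755, 612 and 483 CPM in WT. The 6 libraries with the *cbp60* mutations thus lay close together and far below the 6 without them. The log2 change was -3.32 (SE 0.18, adjusted p = 5.83e-05) in *octuple* over *epn* and -3.12 (SE 0.18, adjusted p = 1.45e-06) in *quintuple* over WT, and the interaction was -0.20 with an interval from -0.77 to 0.37. It was shared without each of the 12 libraries in turn, and left the class where library size replaced TMM scaling. The other shared fall, *AT4G15765*, was at 3.98, 2.72 and 2.96 CPM in *octuple* against 8.55, 5.70 and 5.77 CPM in *epn*, and at 3.15, 4.31 and 3.88 CPM in *quintuple* against 9.48, 9.56 and 10.2 CPM in WT. It stayed in the class in 3 of 12 fits that leave out a library.

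The 33 shared rises were mainly smaller. *DOT1*, annotated as a glycine-rich protein, was at 564, 344 and 314 CPM in *octuple*, 63.0, 55.4 and 47.1 CPM in *epn*, 335, 333 and 367 CPM in *quintuple*, and 60.6, 59.0 and 32.3 CPM in WT. Both genotypes with the *cbp60* mutations lay above both without them, the interaction was 0.03 (interval from -0.64 to 0.70), and the class held in 12 of 12 fits without a library. *PGIP2*, an inhibitor of pathogen polygalacturonases, was at 146, 144 and 45.4 CPM in *octuple* against 20.4, 30.5 and 7.42 CPM in *epn*, and at 106, 113 and 55.8 CPM in *quintuple* against 21.9, 16.7 and 6.49 CPM in WT. Replicate 3 was the lowest in each genotype, the interaction was -0.18 (interval from -0.82 to 0.47), and the class held in 11 of 12 fits without a library. *NAT7*, a nucleobase transporter gene, had an interaction of 0.24 (interval from -0.40 to 0.87) and held its class in 6 of 12 fits without a library. *AT1G13750*, annotated as a purple acid phosphatase, held it in 4 of 12. *AT1G65486*, of unknown function, held it in 12 of 12 with an interaction of -0.14 (interval from -0.63 to 0.34), and its neighbour in name, *AT1G65490*, in 10 of 12.

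Other shared rises, named here after their values were seen, included genes of the cell wall, transport and signalling. *EXPA4*, an expansin that loosens walls, was at 142, 204 and 146 CPM in *octuple* against 26.3, 40.7 and 64.9 CPM in *epn*, and at 120, 143 and 175 CPM in *quintuple* against 37.0, 38.5 and 54.7 CPM in WT, with an interaction of 0.23. *GH9B1*, an endoglucanase gene, rose by 1.60 and 1.48 in *octuple* over *epn* and *quintuple* over WT. *NIP5;1*, a boric acid channel gene, rose by 1.67 and 1.88, and *CAM2*, a calmodulin gene, by 1.102 and 1.30. For *CAM2*, 35.4% of the exonic sequence lies also in another gene, so its counts are less certain. Each interval of these interactions stayed within -1 and 1 by the definition of the class.

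**Figure D3:**
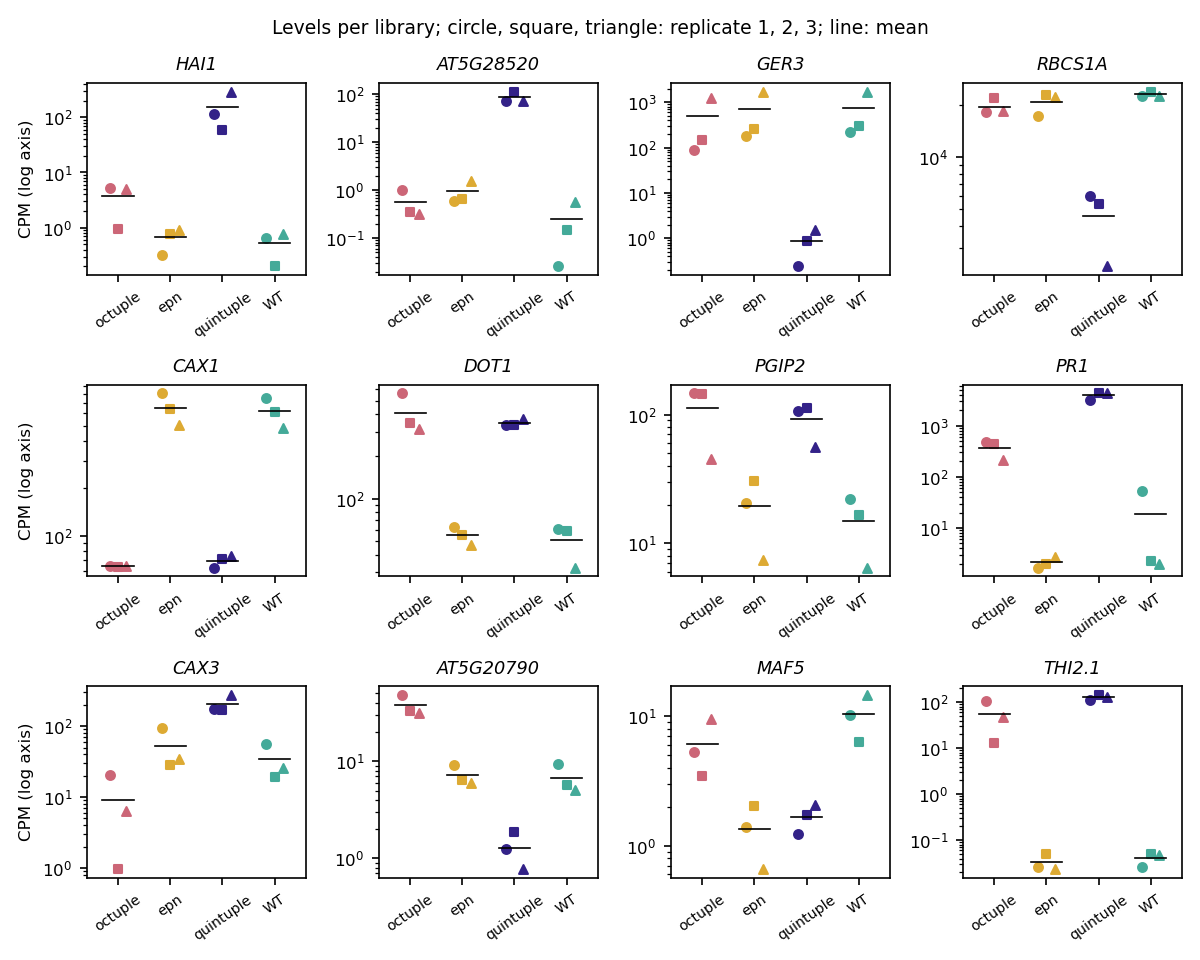
CPM on a log axis in each of the 12 libraries for 12 genes, with *octuple*, *epn*, *quintuple* and WT from left to right, replicates 1 to 3 as circle, square and triangle, and the mean as a line. *CAX1* is near 64 to 75 CPM in *octuple* and *quintuple* and above 480 CPM in *epn* and WT, whereas *CAX3* is below 21 CPM in *octuple* and at least 168 CPM in *quintuple*.

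In 18 genes loss of the *CBP60* genes moved the level in opposite directions in the 2 backgrounds, with 13 rising in *octuple* over *epn* and 5 falling. *CAX3*, a close relative of *CAX1*, fell by 2.78 in *octuple* over *epn* and rose by 2.90 in *quintuple* over WT. It was at 20.2, 0.966 and 6.43 CPM in *octuple*, 92.9, 28.6 and 33.9 CPM in *epn*, 172, 168 and 278 CPM in *quintuple*, and 56.3, 19.5 and 26.0 CPM in WT. Each *octuple* library was below that of the same number in *epn*, although *octuple* replicate 1 lay above the lowest WT library. The interaction was -5.68 (SE 0.79, adjusted p = 0.00076). The reversal held in 9 of 12 fits without a library and was lost without *octuple* replicate 3, *epn* replicate 1 or *epn* replicate 2, where the fall in *octuple* over *epn* no longer passed, and the interaction passed in each of the 12. The fall was also lost without the replicate block. *CAX1* and *CAX3* therefore moved alike in *octuple* and in opposite directions in *quintuple*.

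Of the reversed genes that rose in *octuple*, *AT5G20790*, of unknown function, was at 48.4, 33.3 and 31.1 CPM in *octuple*, 9.25, 6.46 and 5.98 CPM in *epn*, 1.24, 1.86 and 0.776 CPM in *quintuple*, and 9.45, 5.65 and 5.09 CPM in WT. None of the *octuple* or *quintuple* values overlapped those of *epn* or WT. Its interaction was 4.73 (SE 0.33, adjusted p = 2.09e-05) and the reversal held in 12 of 12 fits without a library. The same held for *AT5G50335*, of unknown function, with an interaction of 4.88 (adjusted p = 0.000252), and for *AT5G03545*, annotated as expressed in phosphate starvation. *AT5G03545* was at 13.1, 8.84 and 19.0 CPM in *octuple* against 2.86, 2.30 and 4.50 CPM in *epn*, and at 1.00, 0.436 and 0.291 CPM in *quintuple* against 5.10, 2.38 and 4.05 CPM in WT, with an interaction of 4.80 (adjusted p = 0.000153). *MAF5*, a MADS-box gene of flowering control, had an interaction of 4.63 (adjusted p = 0.000687) and kept its class in 7 of 12. *ChlAKR*, a chloroplast aldo-keto reductase gene, had one of -3.90 (adjusted p = 0.00112) and kept it in 3 of 12.

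Phosphate starvation genes were the one list of 44 in which more genes rose in *octuple* over *epn* than in *quintuple* over WT. Plants short of phosphate replace phospholipids by glycolipids and make SPX regulators and phosphatases. Of 12 tested genes, 6 rose in *octuple* over *epn*, 4 rose and 2 fell in *quintuple* over WT, 5 had a higher interaction and 1 a lower one, with medians of 1.26, 0.34 and 1.21 for *octuple* over *epn*, *quintuple* over WT and the interaction. *SPX1*, a phosphate sensor gene, was at 32.7, 28.5 and 24.3 CPM in *octuple*, 13.6, 11.6 and 6.85 CPM in *epn*, 11.9, 7.96 and 11.0 CPM in *quintuple*, and 12.2, 9.26 and 8.00 CPM in WT. Each *octuple* library stood above the other 9, and the interaction was 1.35 (SE 0.27, adjusted p = 0.00348). *SQD2*, an enzyme of sulfolipid synthesis, was at 148, 100 and 172 CPM in *octuple* against 69.2, 67.3 and 92.0 CPM in *epn*, and at 49.7, 42.7 and 44.1 CPM in *quintuple* against 67.3, 62.0 and 99.7 CPM in WT. Neither difference reached a fold of 2, and the interaction was 1.57 (adjusted p = 0.000547). *MGD3*, a galactolipid synthase gene, had an interaction of 3.53 (adjusted p = 0.00409). *PLDP2*, a phospholipase D gene, rose in both backgrounds, by 1.83 in *octuple* over *epn* and by 2.37 in *quintuple* over WT. Phosphate supply was not measured in these data.

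Responses seen in the *epn* background alone were rare. There were 31 genes that passed in *octuple* over *epn* and in the interaction but not in *quintuple* over WT, 26 of them rising and 5 falling. The genes named next from this class were picked after their values were seen. *AT2G46600*, an EF-hand calcium-binding protein, was at 13.4, 7.90 and 9.75 CPM in *octuple*, 72.2, 46.3 and 39.1 CPM in *epn*, 97.1, 88.4 and 115 CPM in *quintuple*, and 78.9, 53.6 and 42.2 CPM in WT. Each *octuple* library lay below the other 9, and the interaction was -3.17 (adjusted p = 7.17e-05). Of its exonic sequence 9.38% is shared with an antisense gene. *AT2G41410*, another EF-hand protein, was at 32.9, 30.9 and 20.9 CPM in *octuple* against 100, 64.7 and 65.0 CPM in *epn*, and at 105, 109 and 94.1 CPM in *quintuple* against 112, 80.3 and 61.5 CPM in WT, with an interaction of -1.76 (adjusted p = 0.000296). *SRG3*, a glycerophosphodiester phosphodiesterase gene, was at 69.8, 47.1 and 61.7 CPM in *octuple* against 18.3, 16.5 and 11.2 CPM in *epn*, and at 14.1, 13.9 and 10.2 CPM in *quintuple* against 19.6, 13.03 and 12.5 CPM in WT. Its interaction was 2.20 (adjusted p = 0.000166), with 45.9% of its exonic sequence also in an overlapping gene. In 4 genes the response was in 1 direction and larger in the *epn* background, among them *AT2G14900*, a gibberellin-regulated gene with 34.1, 41.1 and 17.7 CPM in *octuple* against 3.54, 5.30 and 4.40 CPM in *epn*, and 12.1, 15.8 and 13.5 CPM in *quintuple* against 4.87, 6.20 and 4.26 CPM in WT (interaction 1.32, adjusted p = 0.00748).

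Among genes that averaged 10 counts or more in every genotype, the lowest interactions included genes with each *quintuple* library far above all others. *AT5G28520*, a mannose-binding lectin, was at 0.988, 0.347 and 0.324 CPM in *octuple*, 0.603, 0.656 and 1.55 CPM in *epn*, 72.0, 113 and 72.5 CPM in *quintuple*, and 0.0259, 0.151 and 0.568 CPM in WT, with an interaction of -9.16 (SE 0.99, adjusted p = 0.00012). *AT5G26260*, a TRAF-like protein, had an interaction of -7.24 (adjusted p = 0.000401), and *AT3G22910*, annotated as a cation-transporting ATPase, one of -5.72 (adjusted p = 0.00276). *TPS04*, a terpene synthase gene induced by JA, was at 5.81, 2.82 and 2.98 CPM in *octuple*, 0.105, 7.82 and 0.0471 CPM in *epn*, 53.3, 84.9 and 86.1 CPM in *quintuple*, and 1.502, 0.0251 and 0.0237 CPM in WT. Its *epn* replicate 3 and WT replicates 2 and 3 lay below the 0.0706 to 0.0753 CPM that 3 counts stand for in those libraries. *epn* replicate 2 was far above its fellows, and the interaction of -6.34 (adjusted p = 0.0321) was -1.79 (adjusted p = 0.577) without it. It also no longer passed without *octuple* replicate 2 (adjusted p = 0.101), *octuple* replicate 3 (adjusted p = 0.0634), WT replicate 2 (adjusted p = 0.101) or WT replicate 3 (adjusted p = 0.0737). *JRG21*, another JA-regulated gene, had an interaction of -6.22 (adjusted p = 0.00576), which was -3.27 (adjusted p = 0.0533) without *epn* replicate 2.

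The highest interactions belonged to genes that almost vanished in *quintuple* alone. *GER3*, a germin-like protein, was at 89.3, 144 and 1236 CPM in *octuple*, 180, 264 and 1717 CPM in *epn*, 0.244, 0.872 and 1.49 CPM in *quintuple*, and 222, 299 and 1688 CPM in WT. Replicate 3 was the highest in each genotype, and within each replicate number the *quintuple* library was the lowest. Its interaction was 8.69 (SE 0.50, adjusted p = 1.25e-05). *LTL1*, a lipase gene of the GDSL family, was at 65.2, 85.6 and 81.5 CPM in *octuple* against 93.8, 102 and 93.9 CPM in *epn*, and at 0.586, 0.597 and 0.136 CPM in *quintuple* against 115, 99.2 and 101 CPM in WT, with an interaction of 7.63 (adjusted p = 7.47e-06). The interaction was 7.86 for *AT4G29020*, a glycine-rich protein, 7.46 for *AT1G11850*, of unknown function, 7.29 for *AT2G33850*, an E6-like protein, and 7.13 for *AT3G16670*, an extensin-family protein, each with an adjusted p of at most 2.22e-05. For these 6 genes the response in *octuple* over *epn* did not pass.

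**Figure D4:**
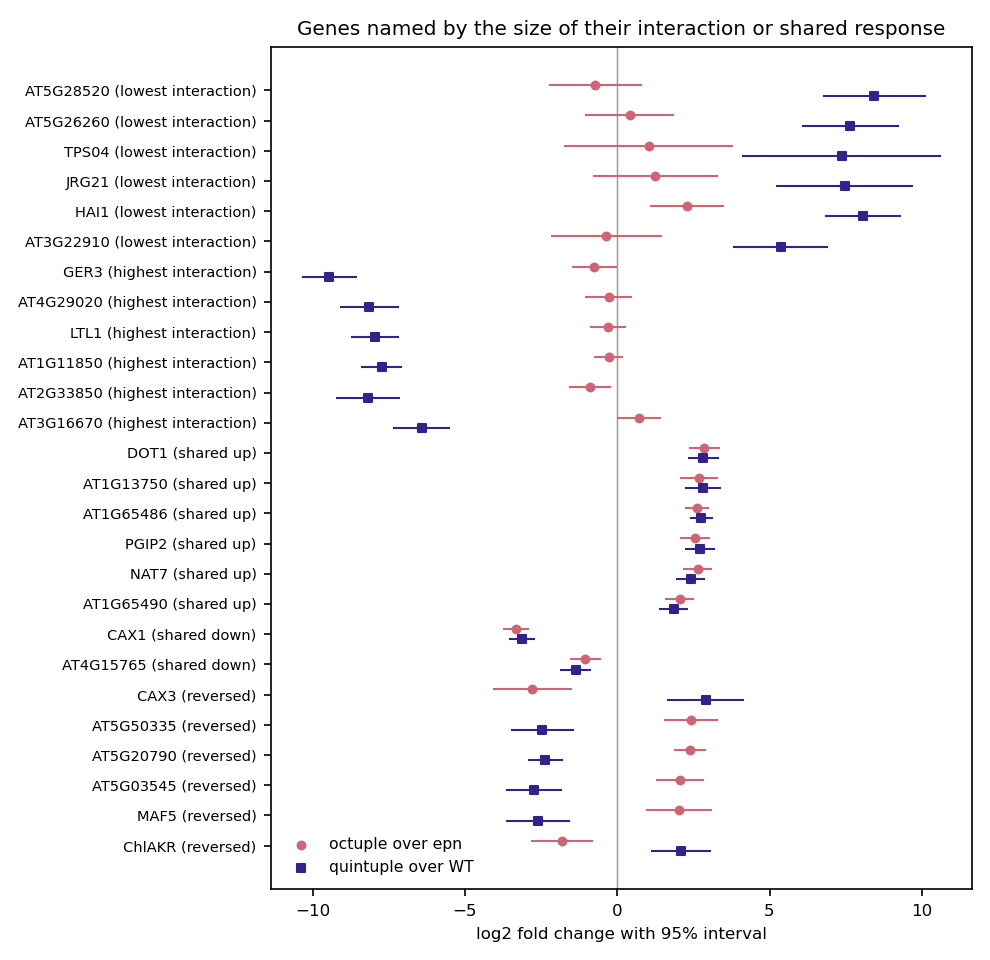
Log2 fold change with its 95% interval in *octuple* over *epn* (circles) and *quintuple* over WT (squares) for the 26 genes named by the size of their interaction or of their shared or reversed response. The 2 symbols lie together for the shared genes, such as *DOT1* (2.86 and 2.83), and on opposite sides of 0 for the reversed genes, such as *AT5G20790* (2.38 and -2.36).

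The promoters of *CAX1* and *CAX3* are shown because these related genes give a shared fall and a reversal. Each is the 250 bases before the annotated gene start in the RefSeq TAIR10.1 genome, 5′ to 3′ on the gene's strand, at chr2:15993327-15993576 (minus) for *CAX1* and chr3:19239055-19239304 (plus) for *CAX3*. The build behind the counts is not given in the sources used here. Capitals mark the W-box core, TTGAC or its complement GTCAA, which is the core of the sites that WRKY factors bind.
CAX1: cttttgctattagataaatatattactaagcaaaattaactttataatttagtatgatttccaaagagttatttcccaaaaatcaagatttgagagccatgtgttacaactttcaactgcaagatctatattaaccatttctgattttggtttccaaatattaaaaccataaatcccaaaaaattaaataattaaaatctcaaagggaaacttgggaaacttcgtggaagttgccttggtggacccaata
CAX3: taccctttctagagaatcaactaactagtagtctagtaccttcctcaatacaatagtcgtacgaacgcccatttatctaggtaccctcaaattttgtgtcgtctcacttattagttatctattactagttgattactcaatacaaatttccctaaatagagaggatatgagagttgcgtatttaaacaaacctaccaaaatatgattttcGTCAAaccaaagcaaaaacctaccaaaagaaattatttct
*CAX1* had no match, and *CAX3* had 1 match.

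The W-box core was somewhat more common among genes that rose than among those that fell. It occurred on either strand in 45.1% of the 20133 promoters of tested genes, in 52.3% of the 2188 dependent rising genes and in 39.9% of the 3258 dependent falling genes. In the 515 genes that rose in both backgrounds without a called interaction, it occurred in 63.9%, and in 48.5% of the 33 of these that met the shared criterion. The TGA core TGACG, which can overlap the W-box core as TTGACG, occurred in 19.4% of all promoters, 22.8% of dependent rising and 18% of dependent falling genes. The G-box CACGTG occurred in 7.43%, 9.51% and 5.77%, and the GCC-box GCCGCC in 1.93%, 1.74% and 1.41%. These shares are descriptions of 250 bases and were given no test.

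The spread over the 3 replicate sets shows which group results are steady. Computed apart for replicate 1, 2 and 3 in log2 CPM, the median interaction was -2.19, -1.64 and -1.97 for the PP2C phosphatases, -1.19, -1.93 and -2.20 for SA synthesis and signalling, and 2.48, 2.88 and 2.31 for cutin and wax. For the ribosomal proteins it was 1.32, 1.205 and 1.15. The sign was the same in each set for these groups. For flavonoids and anthocyanins it was -1.72, -3.57 and 0.81, for JA outputs 0.01, -2.07 and -1.202, and for the SA-linked PR proteins -0.22, -2.55 and -2.21, so these groups varied between sets by as much as their size. Heat shock genes had one sign but a wide range, at -6.13, -2.35 and -2.96.

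**Figure D5:**
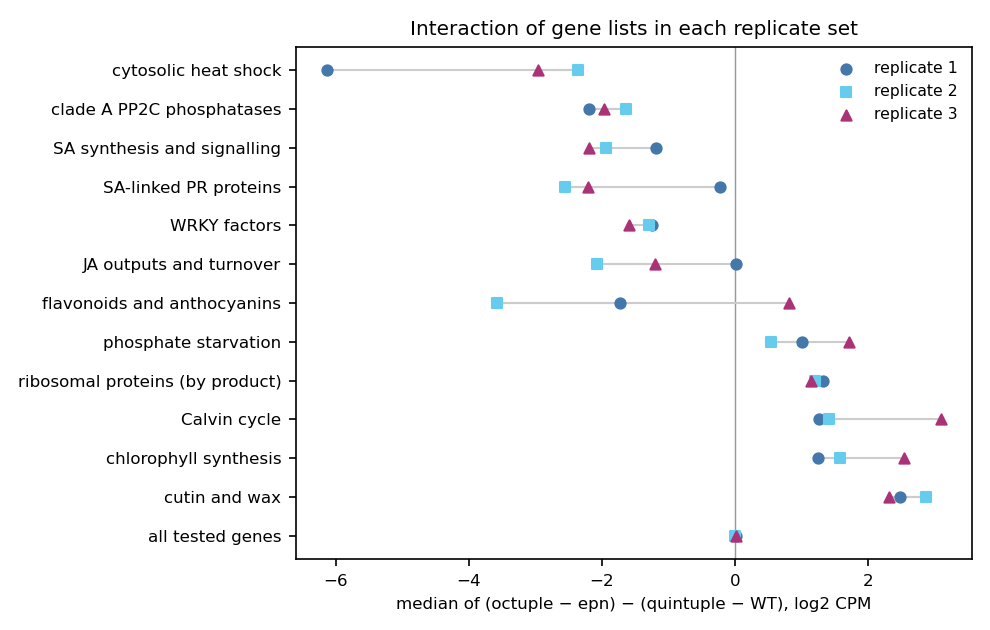
Median of (*octuple* - *epn*) - (*quintuple* - WT) in log2 CPM for 12 gene lists and for all tested genes, drawn apart for replicates 1, 2 and 3 as circle, square and triangle. Flavonoids and anthocyanins span -3.57 to 0.81, whereas the ribosomal proteins span 1.15 to 1.32.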

How the data were processed

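RNA-seq of aerial seedling parts was compared over all 12 libraries. The authors deposited raw counts of reads per gene, as whole numbers with no normalization. HISAT2 and HTSeq are named in the submitters' processing notes. Which genome build and annotation they used, and whether counting was stranded, is not given in the sources used here, so genes that overlap another gene are uncertain. FPKM values that the authors made from the same counts were not used.

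Counts were fitted with edgeR 4.0.16 in R 4.3.3, with filterByExpr, TMM factors, the 4 genotypes and the replicate number as a block, and tested by the quasi-likelihood F test with Benjamini-Hochberg adjustment over 20134 genes. Intervals are 95% Wald intervals. The block was set by the rule of the comparison. Deviations of same-numbered libraries from their genotype means had correlations from 0.182 to 0.785 in 18 pairs. In 36 pairs with different numbers the correlations were -0.590 to 0.267. Deviations within a genotype sum to 0, which by itself pulls the correlations of different numbers down. Interactions per replicate set are in log2 CPM with a prior count of 2, and CPM are not divided by gene length.

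The gene lists, the tests and the comparison itself were chosen with earlier results of these data known. In the lists 12 entries were left out because the annotation gives another symbol. Genes were named if they were mutated, belonged to a described list, or were among the 6 lowest or highest interactions or the 6 largest shared or reversed responses among genes averaging 10 counts or more in every genotype. Genes outside this rule are marked as picked after their values were seen. Intervals cover the spread between libraries, and 3 counts stand for 0.0582 to 0.0787 CPM. The alternatives were limma-voom (limma 3.58.1), DESeq2 1.42.0, other scalings and filters, no block, a test against a fold of 2, and fits without each library. Promoters and gene names came from RefSeq.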

Additional observations from a re-analysis of the deposited data

Results flagged for a closer look

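The difference between the 2 backgrounds was itself tested as an interaction, and each result given here had a called interaction with all 12 libraries. This held for 2291 genes with a lower interaction and 3406 with a higher one. Among the genes ranked by size, the interaction was -9.16 for *AT5G28520*, -7.24 for *AT5G26260*, -6.34 for *TPS04*, -6.22 for *JRG21*, -5.78 for *HAI1* and -5.72 for *AT3G22910* on the log2 scale. The calls of *TPS04* and *JRG21* were lost without *epn* replicate 2, and that of *TPS04* also without some other single libraries. The interaction was 8.69 for *GER3*, 7.86 for *AT4G29020*, 7.63 for *LTL1*, 7.46 for *AT1G11850*, 7.29 for *AT2G33850* and 7.13 for *AT3G16670*. In the genes whose response turned round, it was -5.68 for *CAX3*, 4.88 for *AT5G50335*, 4.73 for *AT5G20790*, 4.80 for *AT5G03545*, 4.63 for *MAF5* and -3.90 for *ChlAKR*. The reversed class held in 9 of 12 fits without a library for *CAX3*, 7 for *MAF5* and 3 for *ChlAKR*.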

How the results depend on the processing

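Tested against a fold of 2 in place of a fixed fold limit, 864 genes had a lower and 1663 a higher interaction. Leaving out each library in turn gave 1877 to 2406 lower and 3086 to 3526 higher genes, 1792 to 2304 dependent rises, 2941 to 3393 dependent falls, 18 to 40 shared rises (18 without *epn* replicate 1, 21 without *octuple* replicate 1) and 1 to 5 shared falls. Shared falls numbered 4 with library size only and 6 with replicates 1 and 2 only. Library size in place of TMM moved the median interaction of all genes by -0.24 and upper-quartile scaling by 0.13. Without the replicate block, 1759 genes had a lower and 2808 a higher interaction, 4406 genes were dependent, 4356 of them also with the block, and 9 of the 18 reversed genes kept that class. With library size only, 14 of the 35 shared genes kept theirs.

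Of 101 named genes followed under every alternative, 70 had a called interaction, which 68 kept under each alternative and which *TPS04* and *JRG21* lost under some. *PR1*, *PR2*, *PR5* and *NDR1* gained a call under some. No named gene with a call changed sign. Depth limits genes near 3 counts, and the number of libraries limits the intervals behind the shared class. In 29 of 44 lists the median stayed within 1 SD of the replicate sets under each alternative.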

Other observations

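The genes in this section were picked after their values were seen. *BT5*, which encodes a BTB and TAZ domain protein, had 0 counts in each *octuple* and each *quintuple* library, against 421, 387 and 250 counts in *epn* and 231, 887 and 198 counts in WT. Taking 3 counts per library as the limit, it was at least 119.75-fold lower in *octuple* than in *epn*.

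*PFK6*, a phosphofructokinase gene, was at 10.7, 12.3 and 11.0 CPM in *octuple*, 3.77, 3.96 and 4.40 CPM in *epn*, 4.37, 5.21 and 3.45 CPM in *quintuple*, and 11.2, 12.5 and 10.2 CPM in WT. Each *octuple* library lay within or close to the WT range and each *quintuple* library close to the *epn* range, with an interaction of 2.86 (interval from 2.38 to 3.34, adjusted p = 2.93e-05). Of the exonic sequence of *PFK6*, 16.7% lies also in another gene. *CML41*, a calmodulin-like gene, was at 0.843, 0.297 and 0.583 CPM in *octuple*, 30.1, 3.18 and 2.85 CPM in *epn*, 10.8, 11.8 and 17.3 CPM in *quintuple*, and 18.5, 1.96 and 2.91 CPM in WT. Replicate 1 of *epn* and of WT stood apart from replicates 2 and 3. *PEPC1*, a phosphatase gene, was at 14.8, 3.96 and 7.88 CPM in *octuple* against 6.03, 1.51 and 1.22 CPM in *epn*, and at 0.586, 0.0918 and 0.349 CPM in *quintuple* against 3.39, 0.527 and 1.30 CPM in WT, with an interaction of 3.96 (adjusted p = 0.000317). *PAP14*, a purple acid phosphatase gene, was at 7.40, 3.96 and 8.91 CPM in *octuple* against 0.157, 0.0505 and 0.447 CPM in *epn*. It was at 0, 0 and 0.0194 CPM in *quintuple* against 0.181, 0.276 and 0.497 CPM in WT.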
